A study of Gallus gallus with 2 samples.

Results

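Sterol synthesis genes were examined in chick embryos on 1 array each of heart forming regions (HFR) and of the posterior primitive streak (PPP). The genes were given as 8 symbols, HMGCS1, IDI1, FDPS, FDFT1, SQLE, LSS and DHCR7, which code for enzymes of cholesterol synthesis, and SREBF2, which codes for the transcription factor that controls them. All probe sets annotated with 1 of these symbols alone were taken, 11 of the 38382 probe sets analysed, and they covered 7 of the 8 genes among 13009 genes in all. No probe set used here carried the symbol IDI1, so that gene has no value. The set is named for sterol synthesis and LDL uptake, but none of its 8 symbols is a lipoprotein receptor, and it is described here as sterol synthesis genes with their regulator.

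Animal cells build cholesterol from acetyl-CoA by way of mevalonate, isoprenoid units, squalene and lanosterol, or take it up in lipoproteins through receptors on the cell surface. When membrane sterol falls, SCAP carries the SREBF2 protein (SREBP2) out of the endoplasmic reticulum, proteases release its active part, and genes of synthesis and uptake are transcribed. INSIG proteins hold the complex back when sterol is plentiful. In the early embryo, cholesterol is a component of new membranes and is attached to Hedgehog ligands, and avian embryos also receive lipid from the yolk.

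Both tissues came from embryos that, after some 12 h at 37.5 °C, had received the plasmid pCer2.5-EGFP by electroporation at stage HH3, in which 2.5 kb from upstream of Cerberus drives EGFP. Excision followed at HH4 to HH4+ by the sample titles, while the stage given among the characteristics is HH4-5. The HFR pieces were chosen by EGFP fluorescence, and the sources used here do not give how many embryos were pooled. Amplification started from 45 ng of total RNA and ran for 2 rounds. The values are model-based expression indices (MBEI), linear probe set intensities fitted by the authors over 6 arrays, each with a detection call and the model's standard error. Errors after ± are this error, which comes from the probes of a single array. A single array per tissue gives no replicate check and no p-value, and this number of arrays limits the precision. Differences are given as log2 HFR minus PPP, so that negative values are higher on the PPP array. The level filter kept probe sets whose brighter value was a present call of at least 70.8 MBEI, the median of the brighter values. Paired values give HFR before PPP.

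The genes named to check the labels did not lie as the labels would place them. TBXT (Brachyury), a factor of the streak, read 7128.6 ± 80.7 MBEI for HFR and 3691.4 ± 147.1 for PPP, and CER1, whose regulatory fragment drove the EGFP, read 108.3 ± 19.2 (marginal) and 420.2 ± 193.3. The summed level of all 11 heart field and anterior endoderm markers was 9736.2 and 15228.7 MBEI, and that of all 10 streak markers 13025.2 and 7028.1. The largest parts of the heart field sum came from SOX17 and GATA5, and that of the streak sum from TBXT. All 8 heart field and anterior endoderm markers past the level filter lay below 0. At 2-fold or more, 4 were higher on the PPP array and 0 on the other, against 4.25% and 3.86% of all passing genes. CER1, HAND2, ISL1 and NKX2-5 passed through the PPP value alone, so that their direction was fixed by the filter. Streak markers past the level filter were split, with 5 above 0 and 3 below. At 2-fold or more, 2 were higher on the HFR and 2 on the PPP array, against 3.86% and 4.25% of all passing genes. The former were WNT3A (1200 and 189.8 MBEI) and MESP1 (2301.2 and 883.7). The latter were FGF8 (62.2, absent, and 282.1 MBEI) and GSC (80.2 and 240.6). FGF8 passed through the PPP value alone. MIXL1, also below 0, lay at -0.02. TBXT went against the labels. So did CER1, but less firmly, since its PPP value had a model error of 46.0%, past the error limit of 30% among the alternatives. The text therefore speaks of the HFR-labelled and the PPP-labelled array. Every direction below rests on those labels. The share of probe sets called present was 38.4% and 42.2%, and the median MBEI was 65.6 and 63.

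On the deposited scale, genes of sterol synthesis read lower on the HFR-labelled than on the PPP-labelled array throughout the set, and setting the poly-A spike-ins equal turned the sign of all 7 genes. Of the 11 probe sets 9 passed the level filter, and those 9 were present on both arrays and lay below 0. The 7 genes, each represented by its probe set of highest mean log2 value, had a median log2 difference of -0.84, or 1.79-fold, within a range from -1.08 to -0.71. All 7389 genes past the filter had a median of -0.05 with an SD of 0.63. At 2-fold or more, 3 of the 9 probe sets (from SQLE and SREBF2) favoured the PPP-labelled array and 0 the other, as 5.22% and 3.73% of all 13393 passing probe sets did. At 1.5-fold or more, 8 of 9 probe sets were higher on the PPP-labelled array against 15.4% of all passing probe sets, and 7 of 7 genes against 13.0% of all passing genes. The genes were chosen with earlier results of these data known, so these shares describe the set and are no test of it. In bulk tissue, fewer cells that express a gene and less RNA per cell cannot be told apart.

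**Figure D1:**
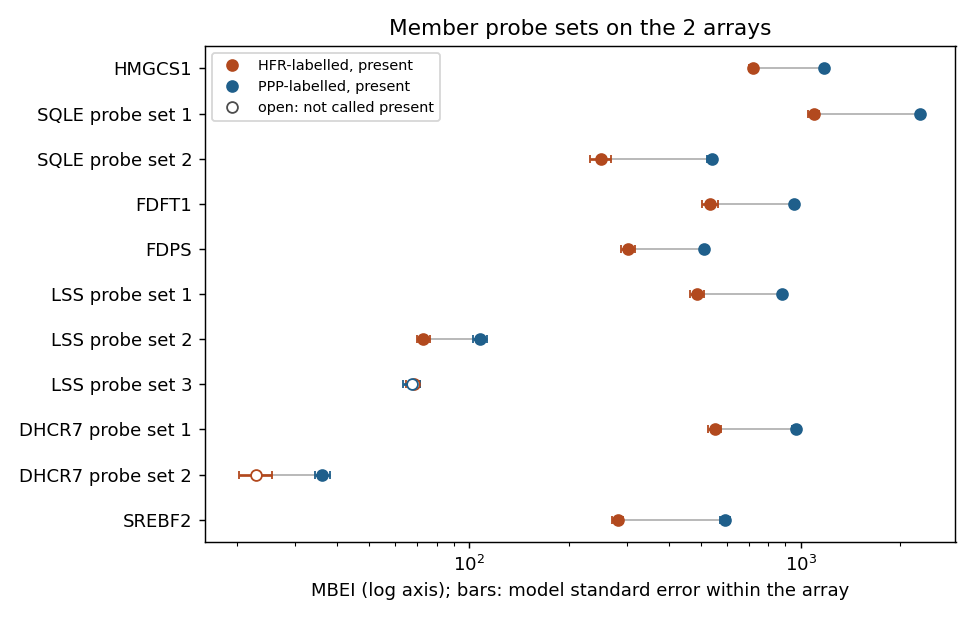
MBEI of the 11 probe sets (log axis) on the HFR-labelled and the PPP-labelled array, joined by a line for each probe set, with bars for the model standard error within an array and open points for values not called present. The 9 probe sets past the level filter lie to the right on the PPP-labelled array, and LSS probe set 3, absent on both, reads nearly the same on each (68.2 and 67.3 MBEI).

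The enzymes follow in pathway order. HMGCS1, the cytosolic HMG-CoA synthase of the mevalonate pathway, has 1 probe set. It read 720.1 ± 19.0 MBEI with the HFR label and 1178.7 ± 15 with the PPP label. This was the smallest difference among the 7 genes, 1.64-fold or -0.71 ± 0.04 on the log2 scale, and 9.35% of all passing genes lay as low or lower.

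FDPS, which joins isoprenoid units into farnesyl diphosphate, read 302.4 ± 15.2 and 513.1 ± 11.8 MBEI. Its log2 difference was -0.76 ± 0.08, or 1.70-fold. FDFT1, squalene synthase, commits farnesyl diphosphate to sterols and read 535.2 ± 29.2 and 957.3 ± 21.5 MBEI. With -0.84 ± 0.09, or 1.79-fold, it was the middle gene of the 7, and FDPS and FDFT1 differed by less than the sum of their model errors.

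SQLE, squalene epoxidase, performs the first oxygen-requiring step of the pathway and had the largest difference among the enzymes. Its brighter probe set read 1096.5 ± 40.1 and 2285.7 ± 26.8 MBEI. The other read 250.0 ± 18.7 and 539.7 ± 15.9. Both were past 2-fold, at 2.08-fold and 2.16-fold, and their log2 differences of -1.06 ± 0.06 and -1.11 ± 0.12 lay within their errors of each other. These probe sets share a gene and are no independent observations.

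LSS, lanosterol synthase, closes squalene epoxide into the first sterol ring system, and its 3 probe sets did not read alike. The brightest read 487.5 ± 23.9 and 880.9 ± 22.1 MBEI, 1.81-fold higher on the PPP-labelled array with a log2 difference of -0.85 ± 0.08. A dimmer one read 73.0 ± 3.2 and 108.0 ± 5.1, 1.48-fold or -0.57 ± 0.09, and was the 1 passing probe set of the set that stayed under 1.5-fold. The third was absent on both arrays and lay at 0.02 ± 0.11.

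DHCR7, which reduces 7-dehydrocholesterol to cholesterol as the last step of one branch of the pathway, read 551.9 ± 25.4 and 971.8 ± 27.4 MBEI. The log2 difference was -0.82 ± 0.08, or 1.76-fold. Its second probe set was dim and failed the level filter. There it read 22.9 ± 2.6 (absent) and 36.2 ± 1.9 (present), so that the PPP-labelled value was at least 1.58-fold higher.

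SREBF2 itself had the largest difference of the 7 genes by the representing probe set. It read 281.1 ± 10.9 MBEI with the HFR label and 592.2 ± 19.2 with the PPP label, a 2.11-fold difference, with a log2 difference of -1.08 ± 0.07. Of all passing genes 3.52% lay as low or lower, and 3.65% for SQLE. In order, SREBF2, SQLE, LSS, FDFT1, DHCR7, FDPS and HMGCS1 ran from the largest to the smallest difference. Neighbours in that order differed by less than the sum of their model errors, except SQLE and LSS.

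The model errors of the 9 passing probe sets were 1.17% to 7.48% of the MBEI, and the median over present probe sets was 4.71% on the HFR-labelled and 4.18% on the PPP-labelled array. Each of the 9 differences was at least 6.08 propagated standard errors from 0, which speaks to the probes within these arrays and not to embryos. Among the 2670 passing genes whose mean log2 level lay within the range of the 7, the median log2 difference was -0.03, and 9.55% reached 1.5-fold towards the PPP-labelled array. Probe sets with the suffix s can bind transcripts of more than one gene or variant. Those of HMGCS1, FDFT1 and LSS all carry it, and 1 of the 2 of SQLE does. Without them the SQLE, FDPS, DHCR7 and SREBF2 probe sets that remained had a median of -0.94.

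IDI1 interconverts the isoprenoid units that FDPS joins. Although it has no probe set by symbol, its paralogue IDI2 has 3, which were picked with their values known and whose relation to IDI1 in the chick was not examined. They read 535.7 ± 22.7 and 770.8 ± 31.7 MBEI, 179.4 ± 7.6 and 284.8 ± 4.5, and 185.0 ± 11.1 and 720.8 ± 4.0. All 3 lay below 0, with log2 differences of -0.52, -0.67 and -1.96 that did not agree in size.

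The synthesis pathway as a list, which includes the given enzymes, was read in the same way. Of 21 sterol synthesis genes listed, 16 had a probe set and 12 passed. All 12 lay below 0, with a median of -0.79, and the sign turned under the poly-A scaling. At 2-fold or more 1 of the 12 (SQLE) was higher on the PPP-labelled and 0 on the HFR-labelled array, against 4.25% and 3.86% of all passing genes. With the representing probe sets, the 6 passing genes outside the given set had a median of -0.26. Of these 6, 2 reached 1.5-fold towards the PPP-labelled array, against 13.0% of all passing genes.

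HSD17B7, a 3-ketosteroid reductase of the pathway, read 268.8 ± 13.0 and 533.9 ± 11.9 MBEI, 1.99-fold higher on the PPP-labelled array. Its other probe set did not show this (127.7 ± 5.1 and 129.2 ± 9.4). MSMO1, the sterol methyl oxidase, read 837.8 ± 53.3 and 1480.9 ± 53.4, 1.77-fold. The other 4 were, like MSMO1, chosen after their values were seen. NSDHL, a sterol dehydrogenase, lay at -0.35 and mevalonate kinase MVK at -0.13. LBR, a sterol reductase of the nuclear envelope, lay at -0.17 with its brightest probe set, but at -0.43 and -0.77 with the others past the filter. The thiolase ACAT2 lay at -0.11 with its brightest, which has the suffix s, and at -0.64 with the one that lacks it (382.7 ± 9.6 and 597.3 ± 7.9 MBEI). MVD, CYP51A1, PMVK and SC5D had absent calls on both arrays in their representing probe sets, MVD at 376.4 ± 16.7 and 643.4 ± 14.6 MBEI.

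**Figure D2:**
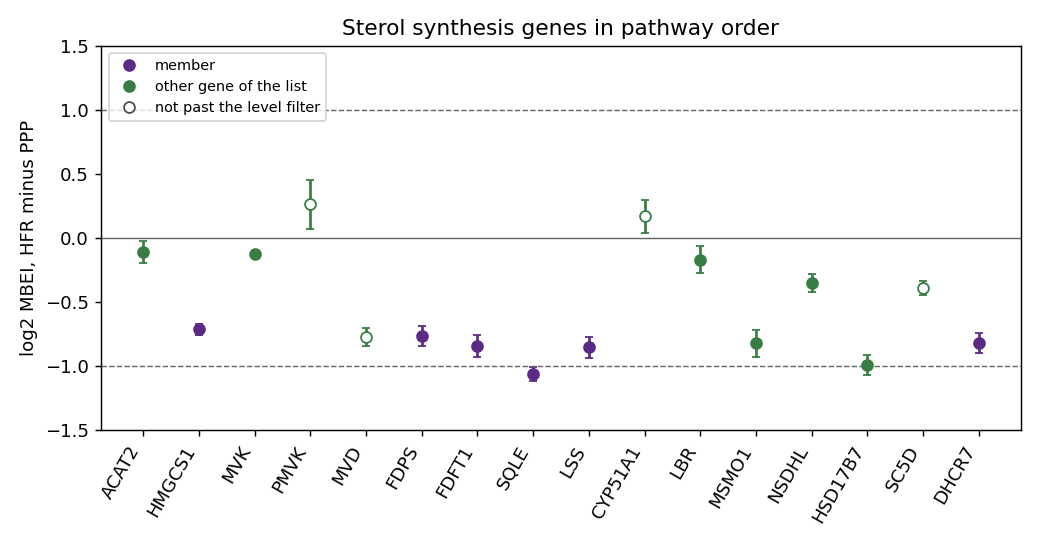
Log2 difference (HFR minus PPP, deposited scale) of 16 sterol synthesis genes in pathway order, with bars for the propagated model standard error, dashed lines at 2-fold and open points for genes not past the level filter. The members lie between -1.06 (SQLE) and -0.71 (HMGCS1), while MVK, ACAT2 and LBR lie within 0.2 of 0 with the probe sets shown, although other probe sets lie at -0.64 (ACAT2) and at -0.43 and -0.77 (LBR), and the poly-A scaling turns the sign of all passing genes shown.

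Genes that regulate the pathway lay on both sides of 0 in their representing probe sets. Of 13 with a probe set, 10 passed, among them SREBF2 of the given set, and 7 lay below 0. The median was -0.24, which the mean (0.02) did not share in sign. It was -0.07 without the level filter and -0.39 over genes present on both arrays. INSIG1, a target of SREBP2 that retains SCAP, read 786.5 ± 15.1 and 1132.5 ± 32.3 MBEI, a log2 difference of -0.53 ± 0.05, and INSIG2 had -0.60 ± 0.13. MYLIP, a ubiquitin ligase that degrades lipoprotein receptors, had -0.57 and was chosen after its value was seen. MBTPS1, the first protease that cuts SREBP2, lay the other way and was at least 1.58-fold higher with the HFR label (125.5 ± 6.6 and 79.3 ± 4.2, absent). At 2-fold or more, 1 of the 10 (HNF4A) was higher on the HFR-labelled and 1 (SREBF2) on the PPP-labelled array, against 3.86% and 4.25% of all passing genes. HNF4A, a nuclear receptor of endoderm and liver, was at least 5.92-fold higher with the HFR label (342.4 ± 42.3 and 57.8 ± 3.8, absent). MBTPS1 and HNF4A passed the filter through the HFR-labelled value alone, so that their direction was fixed by the filter. ERLIN2, also above 0 and picked with its values known, lay at 0.27, but at -0.25 with its other passing probe set. SREBF1 and SCAP were absent on both arrays in their representing probe sets.

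Genes of sterol uptake, handling and storage lay on both sides of 0. Of the 16 listed genes with a probe set 8 passed, with 6 above 0 and a median of 0.23. At 2-fold or more, 2 of the 8 favoured the HFR-labelled array and 1 the other, against 3.86% and 4.25% of all passing genes. NPC2, which hands cholesterol out of the lysosome, read 2506.0 ± 17.6 and 675.4 ± 34.2 MBEI, 3.71-fold more with the HFR label, from a single probe set with the suffix s. SOAT1, which esterifies cholesterol for storage, read 560.9 ± 24.5 and 276.1 ± 11.0, 2.03-fold, and this probe set has the suffix s too. Of the 2 without it, one read 41.3 ± 1.7 (marginal) and 25.7 ± 2 (absent), and the other was absent on both arrays.

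VLDLR, a lipoprotein receptor that in the hen's oocyte takes up yolk lipoprotein, read 349.9 ± 18.1 and 180.9 ± 9.8 MBEI, 1.93-fold higher on the HFR-labelled array. LIPA, the lysosomal acid lipase that frees cholesterol from its esters, went the other way with 101.1 ± 11.7 and 262.7 ± 17.3, 2.60-fold higher on the PPP-labelled array. All other probe sets of LIPA were absent on both arrays. STARD4, a sterol carrier protein that is a SREBP2 target in mammals, also lay with the synthesis genes at -0.80 ± 0.12, and was chosen after its value was seen. SCARB1, NPC1 and LRPAP1, also picked with their values known, had 0.27, 0.20 and 0.15. LRP8, LRP1, ABCA1 and ABCG1 had absent calls on both arrays in their representing probe sets. CUBN, an endocytic receptor of yolk sac and kidney that was picked with its values known, was absent with its representing probe set. Another probe set read 203.7 ± 6.0 and 25.9 ± 7.5 (absent), at least 7.86-fold higher with the HFR label, or 5.88-fold less 1 propagated standard error. That probe set passed the filter through the HFR-labelled value alone, so that its direction was fixed by the filter.

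The branch that uses farnesyl and geranylgeranyl groups outside sterols lay close to the background. All 9 of its genes with a probe set passed, 8 lay below 0, and the median was -0.13. None reached 2-fold, against 4.25% of all passing genes towards the PPP-labelled and 3.86% towards the HFR-labelled array. At 1.5-fold or more 2 of the 9 were higher on the PPP-labelled array, against 13.0% of all passing genes. RABGGTB, a geranylgeranyl transferase subunit, had -0.75, the ubiquinone side chain enzyme PDSS1 -0.68, PGGT1B -0.17 and the farnesyl transferase subunit FNTA 0.17. The other probe set of RABGGTB past the filter lay at -0.16. COQ2 (108.6 ± 4.3, marginal, and 118.5 ± 4.8 MBEI) passed through the PPP-labelled value alone, so that its direction was fixed by the filter.

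Fatty acid synthesis genes, which in mammals respond mainly to SREBF1, had a median of -0.17 over 8 passing genes of 11. That value depended on the summary: it was -0.02 with the median over passing probe sets, -0.04 without the level filter, -0.31 without suffixed probe sets and -0.42 as a mean. FADS2, the delta-6 desaturase, was the 1 gene of the 8 at 2-fold, against 4.25% of all passing genes towards the PPP-labelled array. FADS2 read 76.2 ± 10.6 and 322.8 ± 10.1 MBEI, 4.24-fold higher on the PPP-labelled array. Its second probe set was absent on both. ELOVL6, a fatty acid elongase, had -0.68, -0.76 and -0.78 with its 3 probe sets. ACACA, acetyl-CoA carboxylase, had -0.52 ± 0.20. FASN, fatty acid synthase, was split, with 633.4 ± 21.5 and 785.1 ± 21.4 MBEI on one probe set (-0.31) and 408.6 ± 17.1 and 226.3 ± 10.1 on the other (0.85).

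**Figure D3:**
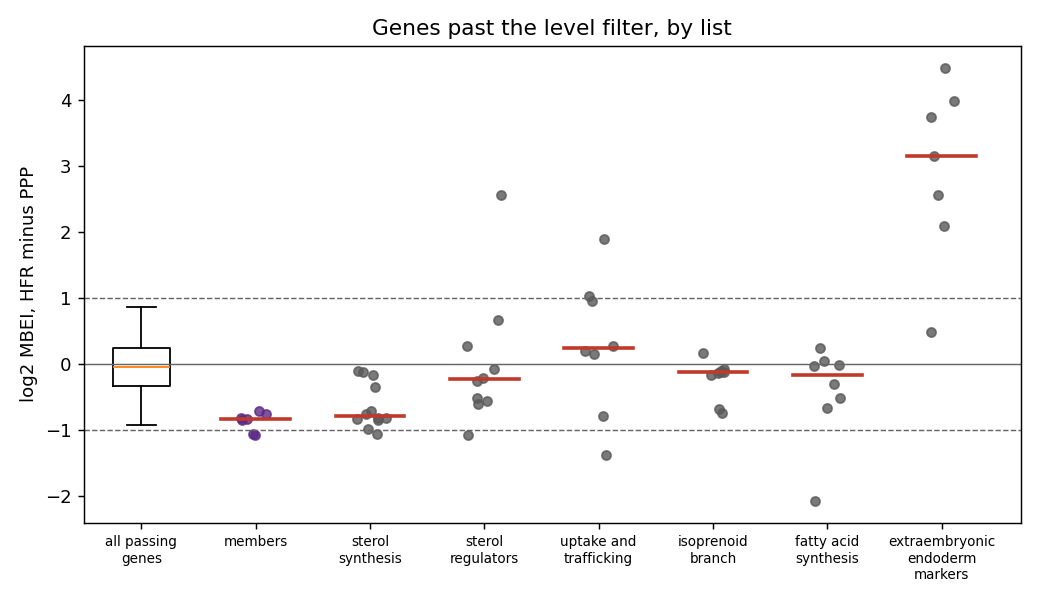
Log2 difference (HFR minus PPP, deposited scale) of each gene past the level filter, by list, with the median as a red line and dashed lines at 2-fold. The box shows the 25th, 50th and 75th percentile of all 7389 passing genes and its whiskers the 5th and 95th. The members (median -0.84) lie below the box, uptake and trafficking genes (0.23) spread to both sides of 0, and under the poly-A scaling the medians of all lists shown lie above 0.

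Markers of other tissues and signs of RNA handling also differed between the arrays. The summed level of all 16 extraembryonic endoderm markers over their representing probe sets was 10600.0 and 2386.8 MBEI. Of the 16, 7 passed the filter, and HNF4A, FGG, TTR and FGB among them passed through the HFR-labelled value alone, so that their direction was fixed by the filter. APOA1, an apolipoprotein, was 15.9-fold higher with the HFR label, or 10.7-fold with its other probe set, and the fibrinogen chain FGB 8.88-fold. RBP4A, a retinol carrier, was 22.6-fold higher there, with a large model error (1835.5 ± 405.9 and 81.3 ± 5.2 MBEI). TF had the smallest difference of the 7, 1.40-fold. Below the filter, FGA read 51.8 ± 4.2 and 39.3 ± 1.8 (absent) MBEI. ALB, also below it, went the other way with 39.9 ± 2.7 (marginal) and 50.7 ± 2.9. None of the 16 was listed at 0, and AFP, AHSG, AMN, APOA4, APOB, CUBN and RBP4 had absent calls on both arrays in their representing probe sets, while other probe sets of CUBN and APOB were present with the HFR label. The summed level of all 5 blood and endothelium markers was 1187.1 and 2805.2 MBEI over their representing probe sets. That of all 5 neural plate and ectoderm markers was 3124.4 and 1487.6. The part of such tissues in the sterol result was not tested.

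Poly-A spike-ins, bacterial transcripts added to the RNA before amplification, were lower on the HFR-labelled array for 36 of 36 probe sets, with a median of -1.49 (range -2.13 to -0.87). The direction of that shift is the same as that of the sterol genes and its size is larger. The 36 probe sets share the spiked transcripts dap, lys, phe and thr and are no independent observations. Hybridization spike-ins had a median of -0.24. The ratio of 3 prime to 5 prime signal was 1.96 and 2.79 for GAPDH, and 4.92 and 5.08 for actin. Whether RNA input or amplification has a part in the sterol differences was not tested.

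Under the poly-A scaling the median of all passing genes moved by 1.52, to 1.47. The 7 sterol genes then lay between 0.41 (SREBF2) and 0.78 (HMGCS1), above 0 but below that median. Relative to the median of all passing genes, their own median was -0.79 on the deposited scale and -0.82 with spike-ins set equal, and -0.79, -0.79 and -0.77 with median centring, quantile normalization and the loess trend removed. All 7 genes lay below the median of all passing genes under each of these 5 scalings. Median centring and the spike-in scaling multiply the values of 1 array by a constant. A gene's place relative to that median is then kept by construction, apart from changes in which genes pass the filter. Their agreement with the deposited scale is therefore no separate check.

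**Figure D4:**
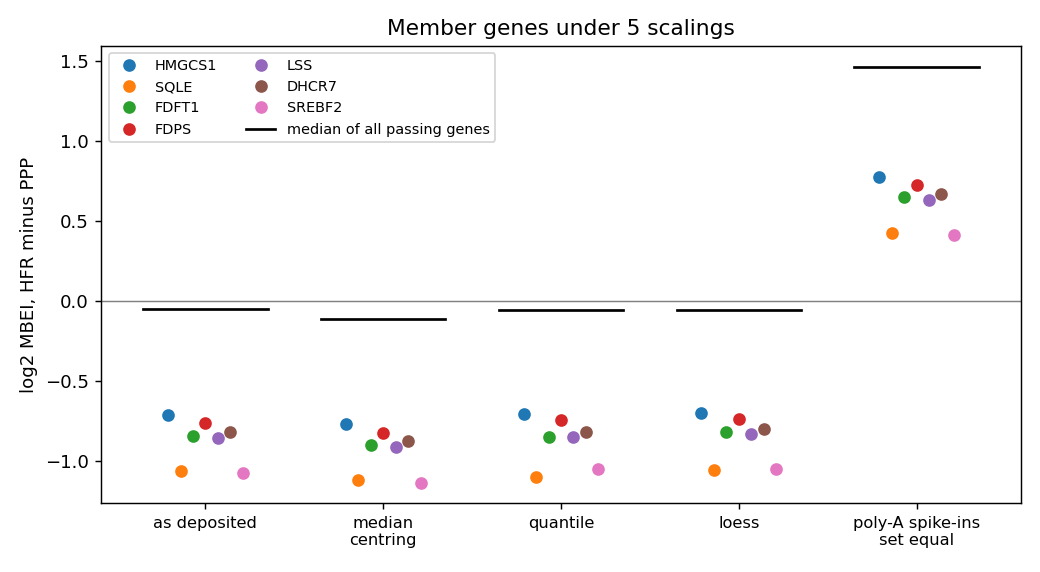
Log2 difference (HFR minus PPP) of the 7 genes under 5 scalings, with the median of all passing genes as a black line. The genes lie between -1.13 and -0.70 under the first 4 scalings and between 0.41 and 0.78 with poly-A spike-ins set equal, below the black line in each. Median centring and the spike-in scaling keep the distance from that line by construction, apart from changes in which genes pass the filter.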

How the data were processed

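Per the series' design text, the authors scaled the arrays to a baseline array by an invariant set of probes and deposited MBEI, intensity values from a perfect-match model over 2 arrays of the series and 4 of another study, whose 12 columns were not used. The submitters' processing notes list GCOS 1.3, with no role. The deposited calls and standard errors, per the file headers, are other columns of the same table, and the value table held equal intensities for 38535 probe sets. Left out were 153 control or reporter probe sets. Symbols came from the platform annotation, updated by gene ID with a RefSeq table. Of the probe sets 27168 had 1 symbol, 177 several and 11037 were unlisted, and 26853 probe sets had a gene ID in that table.

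Log2 differences and propagated errors were computed with numpy 2.4.6 and pandas 2.3.3. A listed 0 was set to 0.1. A fold is a lower bound if the dimmer value lacks a present call, taken against the higher of its value and the lowest present MBEI (6.5 on HFR, 4.8 on PPP). Such a bound leaves the model errors aside. Members and lists were chosen with earlier results of these data known. Named were all members, INSIG1, list genes at 2-fold and up to 4 per list by size, TBXT and CER1; others are marked, and some genes of this rule and of the lists are not reported here. Without replicates no test was made. No sequences were analysed, so a motif search set out for promoters was not run. Calculations were tested on simulated data. The alternatives, whose effects are given in the closing section, were scaling, a pseudocount of 22.3 MBEI, level filters (none, or the 75th percentile, 178.6 MBEI), presence on both arrays, probe set choice, an error limit of 30%, and thresholds of 1.5-fold, 4-fold and 2 standard errors.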

Additional observations from a re-analysis of the deposited data

How the results depend on the processing

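With 1 array per tissue no array could be left out, and no paired analysis was possible because each group has 1 sample. With poly-A spike-ins set equal, the median log2 difference reversed for the given genes (0.65), the sterol synthesis list (0.70), the regulators (1.25), the isoprenoid branch (1.36) and fatty acid synthesis (1.32), that of uptake and trafficking was 1.72, and all 7 given genes changed sign (0.41 to 0.78, with SREBF2 at 0.41 and SQLE at 0.43), as did LIPA (0.11), while 0 of the given probe sets stayed 2-fold higher on the PPP-labelled array. That scaling adds a constant to each log2 difference. The count of 3 probe sets was 8 at 1.5-fold and 0 at 4-fold. Without suffixes s, x or a, the median of the given genes was -0.94 and that of the sterol synthesis list -0.70. The latter was -0.71 with the median over passing probe sets and -0.63 as a mean, and the regulators' mean was 0.018. Outside the spike-in scaling, the median of the given genes ranged from -0.94 to -0.81 and that of uptake and trafficking from 0.18 to 0.29. The brightest passing probe set was an alternative chosen after seeing the data. Probe sets near background, such as the second of DHCR7, give bounds alone.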
